A study of Homo sapiens with 6 samples.

Results

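Splicing and transcript levels of the NRF2 and KEAP1 genes and of 6 redox genes were followed in lung adenocarcinoma cells with and without extra SAM68. The 8 genes were NFE2L2, which encodes NRF2, and KEAP1, TXNRD1, TXN, NQO1, GCLC, GCLM and SLC7A11. Their members were all rows of the 5 splicing tables that carry one of these symbols and average 10 junction reads or more over the 6 libraries. Of 56 rows listed for the 8 genes, 51 met this limit, among 66377 such events of all genes. They comprised 41 skipped exons, 5 pairs of mutually exclusive exons, 3 alternative 5′ splice sites, 2 alternative 3′ splice sites and 0 retained introns. The 5 rows left out belonged to TXNRD1 (4) and NFE2L2 (1).

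The cells were NCI-H1975, a human lung adenocarcinoma line that the labels spell NCl-H1975. The control group (3 libraries) received the empty PCDNA3.1 plasmid, and the SAM68 group (3 libraries) received PCDNA3.1-SAM68, both at 2 µg per well with lipofectamine 2000 for 48 h. SAM68, encoded by KHDRBS1, is an RNA-binding protein that takes part in splicing. The model is a single line with a transient plasmid, and the lysate of a well mixes transfected with untransfected cells. KHDRBS1 itself was read at 318.5 ± 8.91 rpm in control and 1255 ± 23.1 rpm in SAM68 libraries (SD, n = 3), where rpm is reads per 1000000 reads of the most-read event of each gene. Its log2 fold change was 1.98 (SE 0.047, limma adjusted p = 1.16e-21), and plasmid-derived and endogenous reads are counted together in it.

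Skipped exon tables held 16951876 to 19737729 junction reads per library, and the member events held 36454 to 43525. Libraries are given in the order of the deposited lists, which carry no replicate numbers. Among 6 epithelial markers 3 had a row, and their summed level was 732 to 995 rpm in the control and 760.2 to 770.1 rpm in the SAM68 libraries. KRT18 was at 482 rpm in control and 525 rpm in SAM68 libraries, KRT8 at 336 and 237 rpm, and KRT7 at 3.67 and 1.77 rpm. All 3 had an unadjusted p under 0.05, 1 higher and 2 lower, and 0 an adjusted p under 0.05 (limma), with log2 fold changes from -0.89 to 0.12. Their part in the results was not tested. Of 4 lung adenocarcinoma markers NAPSA alone had a row, at a mean of 2 reads, so the lung origin could not be read from these tables. The leukocyte marker CD68 stood at 96.2 rpm in control and 100 rpm in SAM68 libraries, and the endothelial and fibroblast markers had no row. A gene without a row has no listed event, which is not the same as no expression.

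NRF2 is a transcription factor that binds antioxidant response elements together with small MAF proteins. KEAP1 is the cysteine-rich adaptor that presents NRF2 to the CUL3 ubiquitin ligase, and oxidants or electrophiles that modify KEAP1 let NRF2 accumulate. In lung adenocarcinoma the pathway is often switched on by mutations in either gene, which raises thioredoxin, glutathione and quinone-reducing enzymes.

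No member event was called under the study's thresholds, an adjusted p under 0.05 and a change in percent spliced in (∆PSI, SAM68 minus control) of at least 10 percentage points. Of the 51 events 0 passed, against 62 of 66377 over all genes (0.0934%). At an adjusted p under 0.05 alone 1 event passed, a pair of NQO1 exons, against 0.259% of all events. An unadjusted p under 0.05 was reached by 4 member events (7.84%), against 5.95% of all events, and by 3 when limma was run on logit PSI. The PSI of the groups did not overlap in 3 member events (5.88%), against 6.1% of all events. The shares of called and of non-overlapping events were therefore near those of all genes.

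Most member events were all but fixed in one form. PSI was at least 95% in both groups in 29 events and at most 5% in both groups in 8, which left 14 others. ∆PSI was positive in 30 events and negative in 21, and it was under 1 point in size in 34. The median size was 0.365 points, against 1.24 points over all tested events. Only 1 event differed by 10 points or more, an exon of NFE2L2 outside the canonical transcript, and it rested on a mean of 19 reads per library. Among the 43 events that averaged 50 reads or more the largest ∆PSI was 6.15 points in size.

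**Figure D1:**
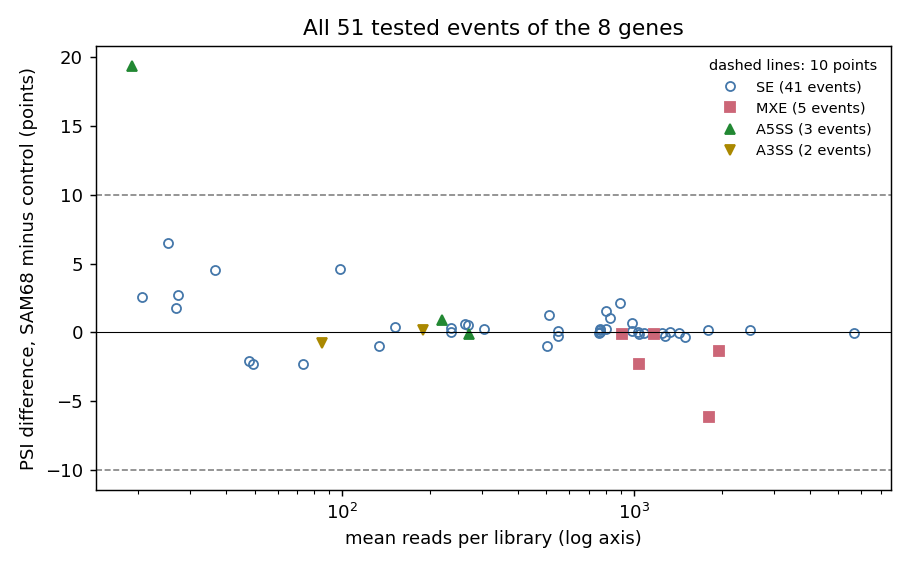
Each point is 1 of the 51 member events, with mean junction reads per library on the x axis (log scale) and ∆PSI in percentage points on the y axis. Dashed lines mark 10 points in either direction. The single event past a line, in NFE2L2, sits at the lowest read number, 19, and the events with at least 50 reads all stay within 6.15 points.

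NFE2L2 (ENSG00000116044, chromosome 2, minus strand) was spliced in nearly a single way at the exon that codes for the KEAP1-binding domain. Exon 2 (chr2:177234005-177234271, 267 nt) can end early at an inner 5′ splice site 71 nt upstream. The 2 sites and those of an exon called the first exon below are shown because they are the alternatives between which the NFE2L2 reads chose. Each run holds 15 exon and 15 intron bases on the transcribed strand of GRCh38, with the first 2 intron bases in capitals.
Exon 2, end used by nearly all reads (chr2:177233990-177234019): gccaactactcccagGTacagagtactcag
Exon 2, inner site (chr2:177234061-177234090): tagatgaagagacagGTgaatttctcccaa
First exon, outer site (chr2:177263388-177263417): tctgtgctgtcaaggGTaagagttgcgagt
First exon, inner site (chr2:177263514-177263543): agggccaagggacagGTtggagctgttgat

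Use of the full exon 2 was 100%, 97.3% and 100% in control libraries and 100% throughout the SAM68 group. The inner site was read 0, 4 and 0 times in the control and 0 times in every SAM68 library, of 201 to 238 reads each. ∆PSI was 0.887 points (p = 0.143, adjusted p = 0.822, quasi-binomial model), and the 4 inner reads came from a single library. In SAM68 libraries 0 of 642 reads allow an inner-site share of up to 0.717% after length correction, counting error only, and ∆PSI was 0 without the control library at list position 2.

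An exon in intron 1 that joins exon 2, called the first exon here (chr2:177263403-177263800, 398 nt), gave the largest ∆PSI of the 8 genes. It is outside the canonical transcript, and its 398 nt form matches 0 GENCODE transcripts. Whether transcripts start there was not tested. The outer site was used by 82.1%, 92.7% and 67.1% of length-corrected reads in control libraries, and by 100% throughout the SAM68 group. The groups did not overlap, yet the inner site rested on 2, 1 and 2 reads in control and 0, 0 and 0 reads in SAM68 libraries. The means were 80.6% ± 12.9 and 100% (SD, n = 3), with ∆PSI 19.4 points. The quasi-binomial p was 0.0874 (adjusted p = 0.822), and the exact permutation p was 0.1, the smallest that 3 against 3 libraries can give. The 0 of 58 inner-site reads in the SAM68 libraries allow a share of up to 9.67% after length correction. ∆PSI was 12.6 points without the control library at list position 3, and 11.3 points without length correction.

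The other NFE2L2 events were at 98.2% or above in both groups. Exon 4 used its inner 3′ splice site, 21 nt inside, in a single read of 1 control library. An exon of the long 5′ transcripts (chr2:177338598-177338699, 102 nt) was included in all but 1 of its reads. Its inclusion reads were 5.86, 4.93 and 5.02 rpm in control and 4.10, 3.12 and 4.22 rpm in SAM68 libraries, at a mean of 27 reads, and the groups did not overlap.

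KEAP1 (ENSG00000079999, chromosome 19, minus strand) had 7 tested events, and in each of them 97.7% or more of the reads of every library took the same form. Exons 4 and 5 both code for part of the Kelch domain, which holds NRF2. Exons 4 and 5 have 2 rows each, which differ in the exons that flank them. For exon 5 (chr19:10489192-10489368, 177 nt) between exons 4 and 6, PSI was 99.1%, 99.3% and 97.7% in control libraries and 100% throughout the SAM68 group. Junction reads from exon 4 to exon 6 numbered 2, 2 and 7 in control and 0, 0 and 0 in SAM68 libraries. In this row the groups did not overlap, and ∆PSI was 1.30 points (98.7% ± 0.898 and 100%; p = 0.0142, adjusted p = 0.699, quasi-binomial model; exact permutation p = 0.1). The 0 of 1423 reads of this row in SAM68 libraries allow a skipped share of up to 0.421% after length correction. Without the control library at list position 3 ∆PSI was 0.780 points (p = 0.0833, quasi-binomial model). Between exons 3 and 6 the PSI of exon 5 was 100%, 98.8% and 98.7% in control and 100%, 100% and 99.1% in SAM68 libraries, with groups that overlapped and a ∆PSI of 0.524 points (p = 0.427, quasi-binomial model).

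Exon 4 of KEAP1 (chr19:10489648-10489853, 206 nt) had rows with ∆PSI of opposite sign. Between exons 3 and 5 it was skipped by 0, 0 and 0 reads in control and by 3, 4 and 0 reads in SAM68 libraries. PSI of this row was 100% in control libraries and 98.8%, 98.3% and 100% in SAM68 libraries, and the third SAM68 library was level with the control. ∆PSI was -0.965 points (p = 0.0319, adjusted p = 0.699, quasi-binomial model). It was -0.607 points (p = 0.111, quasi-binomial model) without the SAM68 library at list position 2 and -1.45 points without the one at position 3. Between exons 3 and 6 the PSI of exon 4 was 99.1% ± 0.764 in control and 99.7% ± 0.489 in SAM68 libraries, a ∆PSI of 0.594 points (p = 0.43, quasi-binomial model). Skipping of exons 4 and 5 together, from exon 3 to exon 6, was read 0, 2 and 2 times in control and 0, 0 and 1 times in SAM68 libraries. An exon between exons 2 and 3 that is outside the canonical transcript (145 nt) was included in 1 read of 1 SAM68 library.

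The thioredoxin system carries electrons from NADPH through thioredoxin reductase to thioredoxin. TXN (ENSG00000136810, chromosome 9, minus strand), which encodes cytosolic thioredoxin, had the most-read event of the 8 genes, exon 3 (chr9:110250820-110250879, 60 nt) with a mean of 5678 reads per library. Between exons 2 and 4, exon 3 was skipped by 0, 1 and 0 reads in control and by 2, 1 and 0 reads in SAM68 libraries, and PSI of this row rounded to 100% in all 6 libraries (∆PSI -0.017 points, adjusted p = 0.70, quasi-binomial model). Exon 2 (105 nt), listed between exons 1 and 4, had a PSI of 99.5%, 99.2% and 99.9% in control and 99.2%, 100% and 100% in SAM68 libraries. Its skipping reads join exon 1 to exon 4 and so lack exons 2 and 3 together. They numbered 6, 12 and 2 in control and 12, 0 and 0 in SAM68 libraries and varied as much within as between groups (∆PSI 0.184 points, adjusted p = 0.699, quasi-binomial model).

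TXNRD1 (ENSG00000198431, chromosome 12, plus strand) encodes the cytosolic thioredoxin reductase, a selenoprotein, and held 20 of the 51 events. Its variable part was the 5′ end, where several first exons join either exon 4 or exon 5 of the canonical transcript. Exon 4 is shown because its use set the 2 named skipped-exon differences of this gene. Capitals mark the exon (110 nt) and lower case 20 intron bases on each side, GRCh38, plus strand.
TXNRD1 exon 4 (chr12:104288911-104289060): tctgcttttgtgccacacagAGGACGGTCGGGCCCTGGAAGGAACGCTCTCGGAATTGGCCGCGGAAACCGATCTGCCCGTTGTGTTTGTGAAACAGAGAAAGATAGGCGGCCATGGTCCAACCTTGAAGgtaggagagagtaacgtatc

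With the first exon that ends at position 104287109, exon 4 was included at 93.3%, 92.4% and 92.1% in control and 95.5%, 92.2% and 96.5% in SAM68 libraries. Skipping reads were 33, 45 and 38 in control and 23, 34 and 17 in SAM68 libraries. The groups overlapped, and ∆PSI was 2.15 points (92.6% ± 0.647 and 94.7% ± 2.23; p = 0.0888, adjusted p = 0.699, quasi-binomial model). With the first exon that ends at position 104287346, inclusion was 89.9%, 91.8% and 88.2% in control and 94.7%, 91.8% and 88.0% in SAM68 libraries. The groups overlapped here too, and the difference of 1.55 points was smaller than the SD of either group (89.9% ± 1.80 and 91.5% ± 3.37). The quasi-binomial p was 0.385 (adjusted p = 0.699), and 0.558 with the unmoderated dispersion of this event. The mean reads were 890.5 and 799.2 per library, and both events share the junction from exon 4 to exon 5.

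The rest of TXNRD1 was close to invariant. Canonical exons 5, 10, 11, 12, 14, 15 and 16 had a PSI of 99.2% or more in every library. The most read was exon 16 (chr12:104339139-104339273, 135 nt), with a mean of 1419 reads, a PSI of 99.9% ± 0.177 in control and 99.9% ± 0.125 in SAM68 libraries, and an adjusted p of 0.894 (quasi-binomial model). Exon 5 is followed by GC in place of GT as the first intron bases. Between exons 4 and 6 it was skipped by 1 read in control and 5 reads in SAM68 libraries, the 5 all in the same library. Between the first exon that ends at position 104287109 and exon 6 it was skipped by 1 read in control and 0 in SAM68 libraries. Exons outside the canonical transcript that lie between exons 4 and 5 were read rarely. An exon of 112 nt was included by 3, 2 and 7 reads in control and 5, 7 and 0 reads in SAM68 libraries, against 640 to 908 skipping reads. An exon of 137 nt between exons 16 and 17 was at 1.21% ± 0.422 in control and 1.47% ± 0.259 in SAM68 libraries (adjusted p = 0.724, quasi-binomial model), from 12 to 27 inclusion reads per library.

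The 3 tested TXNRD1 pairs of mutually exclusive exons each hold neighbouring canonical exons that sit in the same mRNA. Their PSI is then a balance of junction reads on either side and not an exon choice. Exon 10 against exon 11 gave 52.6%, 58.3% and 55.2% in control and 52.5%, 54.5% and 52.3% in SAM68 libraries (∆PSI -2.29 points, p = 0.231, adjusted p = 0.841, quasi-binomial model; -0.821 points without the control library at list position 2). Exon 11 against exon 12 gave 49.2%, 50.3% and 53.1% in control and 49.0%, 52.2% and 51% in SAM68 libraries (∆PSI -0.122 points, adjusted p = 0.993, quasi-binomial model). Exon 15 against exon 16 gave 35.1%, 39.1% and 36.9% in control and 38.5%, 39.7% and 32.6% in SAM68 libraries (∆PSI -0.098 points, adjusted p = 0.994, quasi-binomial model). The groups overlapped in all 3 pairs.

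NQO1 (ENSG00000181019, chromosome 16, minus strand) encodes a cytosolic flavoenzyme that reduces quinones with both electrons at once and is among the best known NRF2 targets. It held the one member event with an adjusted p under 0.05. The event sets exon 4 against exon 5, which are consecutive exons of the 6-exon canonical transcript. Both are shown because their junctions carried the difference, with the exon in capitals and 20 intron bases on each side in lower case, GRCh38, transcribed strand.
NQO1 exon 4 (chr16:69714944-69715097): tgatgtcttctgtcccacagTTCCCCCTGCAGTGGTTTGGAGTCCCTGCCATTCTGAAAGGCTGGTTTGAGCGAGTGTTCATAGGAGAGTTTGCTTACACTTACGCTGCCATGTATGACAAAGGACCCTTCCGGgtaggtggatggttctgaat
NQO1 exon 5 (chr16:69713008-69713149): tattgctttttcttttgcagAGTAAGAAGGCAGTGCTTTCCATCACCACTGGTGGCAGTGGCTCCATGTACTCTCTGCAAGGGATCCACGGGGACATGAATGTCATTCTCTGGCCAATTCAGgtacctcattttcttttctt

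The share of exon 4 (114 nt) against exon 5 (102 nt), between exons 3 and 6, was 56.5%, 57.1% and 54.7% in control and 50%, 47.9% and 51.9% in SAM68 libraries. All 3 SAM68 libraries lay below all 3 control libraries. The means were 56.1% ± 1.27 and 49.9% ± 2.02 (SD, n = 3), and ∆PSI was -6.15 points (p = 5.6e-05, adjusted p = 0.0077, quasi-binomial model; exact permutation p = 0.1). The difference did not reach the limit of 10 points. The mean was 1801 reads per library. The adjusted p was 0.0594 without the control library at list position 1, 0.0839 without the control library at position 2 and 0.12 without the SAM68 library at position 2. It was 0.895 with an unmoderated dispersion and 0.828 when limma was run on logit PSI.

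The skipping of exon 4 itself did not pass the test in either of its rows. Its PSI between exons 3 and 5 was 90.2%, 91.9% and 89.2% in control and 90.2%, 91.6% and 90.1% in SAM68 libraries. Skipping reads numbered 98, 87 and 118 in control and 104, 74 and 91 in SAM68 libraries. ∆PSI was 0.176 points (90.4% ± 1.36 and 90.6% ± 0.824; p = 0.897, adjusted p = 0.962, quasi-binomial model). Between exons 3 and 6 its PSI was 98.6% ± 0.357 in control and 99.3% ± 0.753 in SAM68 libraries (∆PSI 0.702 points, p = 0.204, adjusted p = 0.699, quasi-binomial model). The reads from exon 3 to exon 6, which lack exons 4 and 5, numbered 6, 8 and 10 in control and 3, 0 and 7 in SAM68 libraries, and these groups overlapped. The other pair of NQO1 exons listed as mutually exclusive, exon 2 against exon 4 between exons 1 and 5, was at 65.5%, 64.2% and 65.4% in control and 64.8%, 63.9% and 62.3% in SAM68 libraries (∆PSI -1.38 points, adjusted p = 0.892, quasi-binomial model). Exon 5 between exons 3 and 6 had a mean PSI of 98.2% ± 0.371 in control and 99.3% ± 0.815 in SAM68 libraries (∆PSI 1.03 points, p = 0.0822, quasi-binomial model). Between exons 4 and 6 it had a mean PSI of 97.8% ± 2.02 in control and 97.4% ± 1.67 in SAM68 libraries. Exon 3 was skipped by 1 read in all libraries together. A 207 nt part of exon 6, listed before an exon outside the canonical transcript, was also skipped by 1 read.

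**Figure D2:**
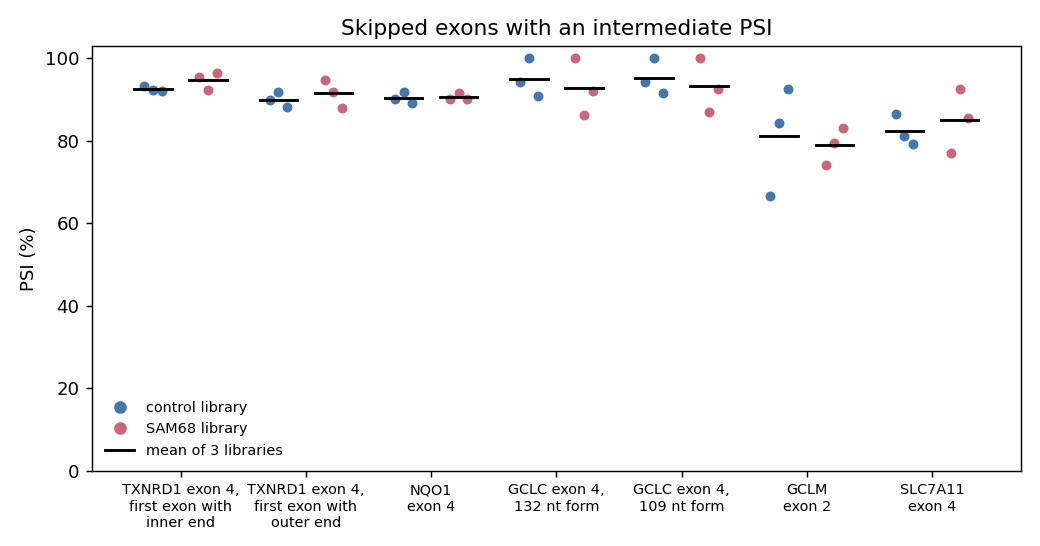
PSI in percent (y axis) of 7 skipped exon events in 5 of the 8 genes, with each point a library of the control or SAM68 group and the bar the group mean. The 2 groups overlap in each of the 7 events, for instance at 89.2% to 91.9% and 90.1% to 91.6% for NQO1 exon 4, and the widest spread, 66.7% to 92.5%, is among the control libraries for GCLM exon 2.

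The single junctions of NQO1, derived from sums and differences of the event reads and scaled to rpm, showed where the balance shifted. The junction of exon 1 with exon 2 was at 216 ± 10.1 rpm in control and 221 ± 14.4 rpm in SAM68 libraries. Exon 2 to exon 3 was at 228, 229 and 235 rpm in control and 180.3, 203 and 175 rpm in SAM68 libraries, a ratio of SAM68 over control of 0.807. Exon 3 to exon 4 was at 173, 176 and 173 rpm in control and 154, 148 and 152 rpm in SAM68 libraries, a ratio of 0.871. At both of these junctions every SAM68 library was below every control library.

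Exon 4 to exon 5 was at 123 ± 7.58 rpm in control and 129 ± 1.84 rpm in SAM68 libraries, and these groups overlapped (exact permutation p = 0.4). Exon 5 to exon 6 was at 114, 114 and 117 rpm in control and 133, 142 and 123 rpm in SAM68 libraries, a ratio of 1.15, and here every SAM68 library was above every control library. Reads of exon 3 to exon 4 per read of exon 5 to exon 6 were 1.52, 1.54 and 1.48 in control and 1.16, 1.05 and 1.24 in SAM68 libraries. The exact permutation p was 0.1 for each junction without overlap and for this ratio. The exon-skipping junction of exon 3 with exon 5 was at 16.8 ± 2.95 rpm in control and 15.6 ± 1.72 rpm in SAM68 libraries. That of exon 3 with exon 6, not drawn in the plot of junctions, was at 1.33 ± 0.323 and 0.586 ± 0.649 rpm (exact permutation p = 0.3), and that of exon 4 with exon 6, also not drawn, at 3.02 ± 2.77 and 3.89 ± 2.48 rpm. The derived reads of exon 4 to 5 and exon 5 to 6 added up to the deposited inclusion reads of exon 5 within 3 reads. The pair of exons 2 and 4 lists fewer reads at exon 4 to exon 5, 626 against 692 derived in the first control library, and how reads across more than 1 junction were counted is not stated.

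**Figure D3:**
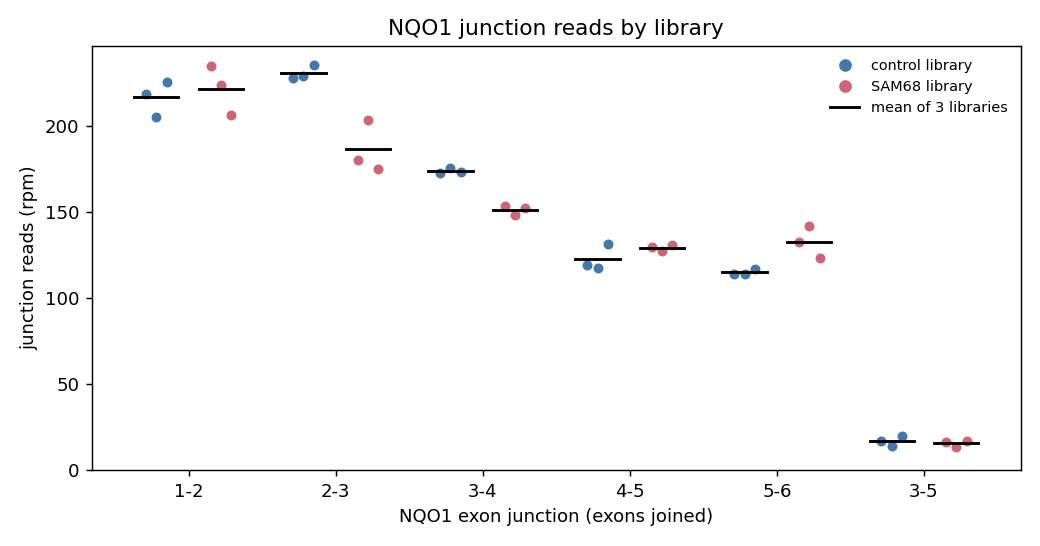
Junction reads in rpm (y axis) at 6 exon junctions of NQO1 ordered from the 5′ to the 3′ end, with exon 3 to exon 5 last, with each point a library and the bar the group mean. SAM68 libraries lie below the control at exon 2 to 3 and exon 3 to 4, above it at exon 5 to 6, and overlap with it at exon 1 to 2, exon 4 to 5 and exon 3 to 5.

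Junction levels without overlap were not rare in these data. Of all skipped exon events with a PSI of at least 95% in both groups, 17.9% had inclusion rpm that did not overlap between groups, and among the member events of this kind it was 7 of 27 (25.9%). Of these 7, 5 were in NQO1, 1 in KEAP1 and 1 in NFE2L2. The 5 NQO1 events share exons and junctions and are not separate observations.

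Glutathione synthesis starts with glutamate-cysteine ligase, whose catalytic subunit is GCLC and whose modifier subunit is GCLM. GCLC (ENSG00000001084, chromosome 6, minus strand) had 5 tested events, of which exon 4 (chr6:53516109-53516222, 114 nt) was the most read, with a mean of 134 reads. It was included at 97.5%, 100% and 97.0% in control and 100%, 94.0% and 97.4% in SAM68 libraries (∆PSI -0.989 points, adjusted p = 0.851, quasi-binomial model). The tables list the exon with 3 acceptors, of 114, 132 and 109 nt, and the stretch that holds them is shown with each AG in capitals, on the transcribed strand of GRCh38.
GCLC exon 4, 3 acceptors (chr6:53516208-53516255): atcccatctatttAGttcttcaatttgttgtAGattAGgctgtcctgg

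The 132 nt form had a PSI of 95.1% ± 4.60 in control and 92.8% ± 6.92 in SAM68 libraries (adjusted p = 0.816, quasi-binomial model). The 109 nt form had 95.3% ± 4.28 and 93.2% ± 6.52 (adjusted p = 0.832, quasi-binomial model). The 3 events share their skipping reads, 2, 0 and 2 in control and 0, 4 and 2 in SAM68 libraries, and most of their inclusion reads at the other end of the exon. Compared directly, the outermost acceptor was read 2 times against 79 in 1 control library and 0 times in the other 5, so the 132 nt form was nearly absent at its own splice site. The 109 nt acceptor has no direct comparison. Its form had 61, 38 and 40 inclusion reads in control libraries, against 66, 40 and 40 for the 132 nt form. The PSI of either form is thus not the share of its acceptor.

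Exon 7 of GCLC (chr6:53509176-53509250, 75 nt) had the smallest p of the gene. PSI was 100%, 88.9% and 97.1% in control and 100% in each SAM68 library, with 0, 8 and 2 skipping reads in control and 0, 0 and 0 in SAM68 libraries. ∆PSI was 4.64 points (95.4% ± 5.74 and 100%; p = 0.0178, adjusted p = 0.699, quasi-binomial model), and a control library at 100% made the groups overlap. The 0 of 277 reads in SAM68 libraries allow a skipped share of up to 1.69% after length correction. Without the control library at list position 2, which held 8 of the 10 skipping reads, ∆PSI was 1.44 points (p = 0.22, quasi-binomial model), and without the one at position 1 it was 6.97 points.

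GCLM (ENSG00000023909, chromosome 1, minus strand) had the largest SD of PSI within a group among the member events, 13.2 points. Its only tested event was exon 2 (66 nt, a whole number of codons), shown with the exon in capitals and 20 intron bases on each side in lower case, GRCh38, transcribed strand.
GCLM exon 2 (chr1:93904503-93904608): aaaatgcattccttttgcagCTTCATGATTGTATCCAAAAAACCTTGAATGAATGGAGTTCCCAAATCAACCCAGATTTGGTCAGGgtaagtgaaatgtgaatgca

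GCLM exon 2 was included at 66.7%, 84.4% and 92.5% in control and 74.1%, 79.5% and 83.1% in SAM68 libraries. Skipping reads were 18, 8 and 4 in control and 14, 11 and 8 in SAM68 libraries, of 67 to 78 reads each. All 3 SAM68 libraries lay inside the control range. The means were 81.2% ± 13.2 and 78.9% ± 4.54, and ∆PSI was -2.30 points (p = 0.719, adjusted p = 0.858, quasi-binomial model).

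SLC7A11 (ENSG00000151012, chromosome 4, minus strand) encodes xCT, the transporter that brings in cystine for glutathione synthesis in exchange for glutamate. It was the least read of the 8 genes, with 4 events at a mean of 20.5 to 36.5 reads. Exon 4 was the only one with a PSI below 95% in both groups and is shown for that reason, in capitals with 20 intron bases on each side, GRCh38, transcribed strand.
SLC7A11 exon 4 (chr4:138223179-138223344): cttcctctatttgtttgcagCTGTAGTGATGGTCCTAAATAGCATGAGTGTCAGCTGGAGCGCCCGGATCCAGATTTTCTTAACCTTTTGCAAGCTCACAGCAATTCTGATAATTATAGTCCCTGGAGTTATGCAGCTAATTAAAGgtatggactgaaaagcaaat

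SLC7A11 exon 4 (126 nt) was included at 86.4%, 81.2% and 79.3% in control and 77.1%, 92.4% and 85.6% in SAM68 libraries, from 17 to 38 reads each. The groups overlapped and ∆PSI was 2.73 points (82.3% ± 3.70 and 85.0% ± 7.69; p = 0.931, adjusted p = 0.978, quasi-binomial model). Exon 7 (124 nt) was at 80.4%, 100% and 100% in control and 100% in each SAM68 library, and all 3 of its skipping reads came from 1 control library (∆PSI 6.52 points, adjusted p = 0.699, quasi-binomial model). Exon 2 (127 nt) was at 100%, 95.7% and 90.6% in control and 100% in each SAM68 library, on 0, 1 and 2 skipping reads (∆PSI 4.56 points, p = 0.202, adjusted p = 0.699, quasi-binomial model). Differences of this size could not be told from the spread at this depth.

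The intron windows beside the exons were searched for TAAA and TTAA, the transcribed-strand letters of the short A/U-rich motifs that SAM68 is known to bind. TTAAA holds both, and windows spanned 100 nt on each side. Of the 34 distinct member exons, 67.6% had a match upstream, 67.6% downstream and 82.4% on either side. Over all 38685 exons of tested skipped exon events the shares were 55.2%, 54.2% and 71.0%. Exon 4 of NQO1 and exon 5 of KEAP1 had no match in either window. Exon 5 of NQO1, the other exon of the NQO1 pair, had 1 upstream and 0 downstream. GCLM exon 2 had 2 upstream and 3 downstream, and SLC7A11 exon 4 had 1 upstream and 4 downstream. A match is a description of letters and not a binding site.

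Transcript level was approximated by the reads of the most-read event of each gene, in rpm. In bulk RNA, fewer expressing cells and less RNA per cell cannot be told apart. Of the 8 genes 0 were called, against 5 of 10147 genes (0.0493%) at an adjusted p under 0.05 and a log2 fold change of at least 1. At an adjusted p under 0.05 alone 0 of 8 passed, against 0.414% of genes, and at an unadjusted p under 0.05 also 0 of 8, against 12.1%. The rpm of the groups did not overlap in 0 of the 8 genes, against 1708 of 10147 genes. The median log2 fold change was 0.02 over the 8 genes and -0.03 over all genes.

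NFE2L2 was at 41.0, 36.4 and 34.1 rpm in control and 32.5, 36.9 and 43.1 rpm in SAM68 libraries, a log2 fold change of 0.01 (SE 0.131, 95% interval -0.26 to 0.28, limma adjusted p = 0.990). Read at its skipped exon event alone, at a mean of 27 reads, the value turned to -0.44 (limma adjusted p = 0.625). KEAP1 was at 77.7, 93.7 and 99.5 rpm in control and 75.4, 93.2 and 80.2 rpm in SAM68 libraries, a log2 fold change of -0.12 (SE 0.10, interval -0.33 to 0.09, limma adjusted p = 0.675). The regulator and its sensor thus overlapped between groups. The genes whose log2 rpm followed NFE2L2 most closely over the 6 libraries, of 6205 genes that averaged 100 reads or more, were CBWD1 (Pearson's r 0.991), AL355987.3 (0.984) and SF3A2 (0.977). Those closest to KEAP1 were COX20 (0.971), FAM229B (0.968) and IL4R (0.967). The 6 points share their scaling by library, and these are the highest values of many.

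TXN was at 902, 993 and 984 rpm in control and 986, 947 and 973 rpm in SAM68 libraries, a log2 fold change of 0.02 (SE 0.046, interval -0.08 to 0.11, limma adjusted p = 0.926). TXNRD1 was at 225, 245 and 225 rpm in control and 253, 233 and 267 rpm in SAM68 libraries, a log2 fold change of 0.11 (SE 0.066, interval -0.02 to 0.25, limma adjusted p = 0.518). NQO1 was at 327, 313 and 337 rpm in control and 354, 342 and 323 rpm in SAM68 libraries, a log2 fold change of 0.06 (SE 0.058, interval -0.06 to 0.18, limma adjusted p = 0.726). The widest interval of these 3 abundant genes, that of TXNRD1, ended at 0.25, and the NQO1 value depends on which junctions are read, as shown above.

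GCLC was at 25.0, 20.2 and 20.2 rpm in control and 23.2, 22.4 and 26.0 rpm in SAM68 libraries, a log2 fold change of 0.13 (SE 0.157, interval -0.19 to 0.45, limma adjusted p = 0.789). GCLM was at 12.4, 11.6 and 13.0 rpm in control and 11.7, 13.8 and 12.3 rpm in SAM68 libraries, a log2 fold change of 0.02 (SE 0.202, interval -0.39 to 0.44, limma adjusted p = 0.976). SLC7A11 was at 5.69, 7.16 and 6.69 rpm in control and 5.05, 3.12 and 9.54 rpm in SAM68 libraries, a log2 fold change of -0.25 (SE 0.327, interval -0.92 to 0.42, limma adjusted p = 0.802). The 3 SAM68 libraries of SLC7A11 spread on both sides of the control libraries.

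Per 100 junction positions, which allows genes to be compared, the level in control libraries ran from TXN (507.7 ± 26.6 rpm) through NQO1 (135.0 ± 4.80), TXNRD1 (89.1 ± 4.26), KEAP1 (35 ± 4.47), NFE2L2 (18.7 ± 1.74), GCLC (9.06 ± 1.17) and GCLM (6.77 ± 0.446) to SLC7A11 (2.61 ± 0.338). At these events the order was the same in each of the 6 libraries, and no neighbours overlapped. Each gene was read here at 1 event, and the order at other events was not tested. The closest were GCLC, at 8.32 to 10.9, and GCLM, at 6.28 to 7.58 over the 6 libraries. On this scale NQO1 is read at its exon 4 event, and its SAM68 libraries (124 to 129) lay below its control libraries (131 to 140.5), while the event used for its fold change, from exon 1 to exon 5, gave groups that overlapped.

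**Figure D4:**
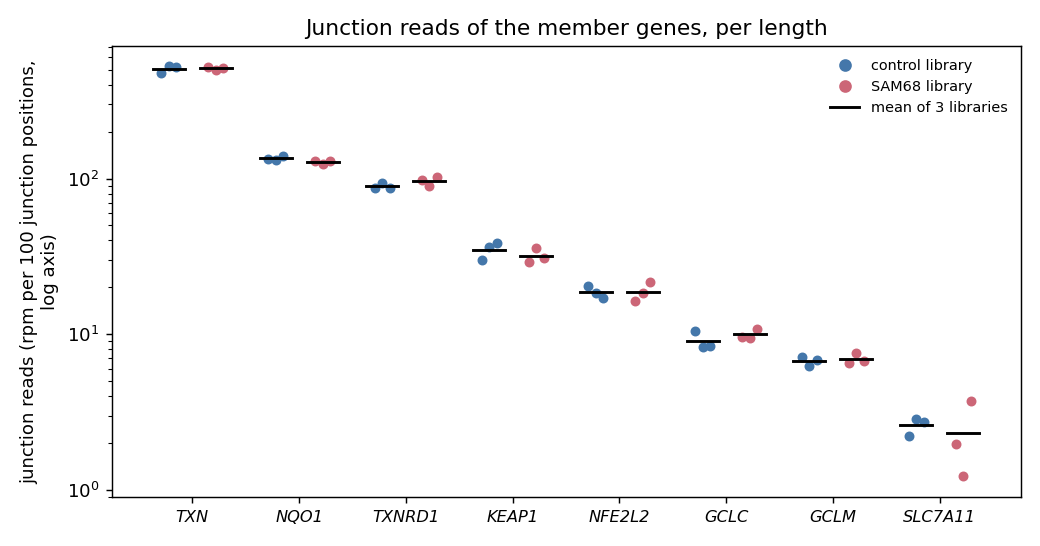
Junction reads in rpm per 100 junction positions (y axis, log scale) of the most-read skipped exon or splice site event of the 8 genes, with each point a library of the control or SAM68 group and the bar the group mean. The genes are ordered by level from TXN at 507.7 to SLC7A11 at 2.61 in the control, and the 2 groups overlap in 7 of the 8 genes, with NQO1 at 131 to 140.5 in control and 124 to 129 in SAM68 libraries. Over all genes, 1708 of 10147 had no overlap in the rpm of their most-read event of any type.

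The other genes of the pathway did not pass the thresholds either. Of 75 listed genes 50 could be tested, and 0 passed an adjusted p under 0.05 in either direction. Their median log2 fold change was -0.03, with a range of -0.64 to 0.30. By role, the medians were -0.14 for 13 partners and controls of NRF2 (MAF proteins, the CUL3 ligase and the like), 0.05 for 12 glutathione genes, -0.11 for 7 thioredoxin genes, 0.09 for 5 NADPH genes and 0.07 for 13 detoxification and iron genes. An unadjusted p under 0.05 was reached by 5 of the 50 genes, against 12.1% of all genes, so the count was not above the background. These 5 are named after their values were seen, with 3 positive and 2 negative log2 fold changes. UGDH, which makes UDP-glucuronate, was lowest of them at a log2 fold change of -0.26 and PRDX4, a peroxiredoxin of the endoplasmic reticulum, was at -0.15. GSS, glutathione synthetase, was at 0.22, MGST3 at 0.22 and BLVRB, biliverdin reductase B, at 0.10.

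In the same pathway list 350 splicing events were tested and 0 had an adjusted p under 0.05, against 0.259% of all events. An unadjusted p under 0.05 was found in 23 of them, against 5.95% of all events, and 21 had groups that did not overlap, against 6.1%. Neither count stood out from those shares. The events with the smallest p, again named after the values were seen, were mutually exclusive pairs of PRDX5, at a ∆PSI of -4.63 points (adjusted p = 0.0537, quasi-binomial model), and of PGD, an NADPH-producing enzyme of the pentose phosphate pathway, at 6.72 points (adjusted p = 0.0565, quasi-binomial model). They missed the threshold for the adjusted p.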

How the data were processed

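RNA of 6 libraries was sequenced. According to the submitters' processing notes and the paper's methods, the authors called bases with CASAVA 1.4, trimmed reads with fastp 0.20.0, aligned them to GRCh38 with HISAT2 2.1.0 and ran rMATS, whose version is not given in the sources used here. The deposited tables of the authors hold, per event, comma-separated lists of raw junction counts of inclusion and skipping forms for the 3 libraries of each group. Columns of the authors' own comparison (p-value, FDR and inclusion difference) were not used. The first list of each event was taken as control and the second as SAM68, after the order in the study's heading of its splicing comparison, and KHDRBS1 was checked against it. The 3 libraries per group were separate biological replicates. Of 78336 listed rows, 131 alternative 3′ splice sites could not be read, none of a member gene.

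PSI was inclusion reads over all reads, both divided by effective length. A quasi-binomial model with group as its term, dispersion moderated within event type by limma 3.58.1 in R 4.3.3 and never below 1, gave an F test. Benjamini-Hochberg adjustment ran separately for the 5 event types, over every event that averaged 10 reads or more. Moderation left 1 shared dispersion per type, so the quasi-binomial p of an event does not reflect its own spread between libraries. Gene levels were the reads of the most-read event per 1000000 such reads (5449695 to 6337736 per library), tested with limma on log2(rpm + 0.5). A count-based test had been planned for them, but the cells are lists read out as text and only a proxy of gene counts, so limma took its place. Reads at 1 event can change with splicing as well as with level. Single values were compared by exact two-sided permutation tests, and a count of 0 was taken to allow 3 reads. These limits cover counting error only, while intervals of log2 fold changes come from limma and the spread between libraries.

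Members, gene lists, markers and tests were chosen with earlier results of these data known. Named were each member gene's most-read event, events with a mean PSI of 5 to 95% and at least 20 reads, and the event with the smallest p; exceptions are marked. Other member events named for what their reads show, such as KEAP1 exon 4, were also chosen after their values were seen. Exons were matched to GENCODE canonical transcripts on the same build, and sequences were read from that genome. Alternatives covered dispersion, test, read minimum, length correction, thresholds, scaling, pseudocount and leaving out each library.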

Additional observations from a re-analysis of the deposited data

How the results depend on the processing

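Called member genes numbered 0 under every alternative run, and called member events 0 under all but a ∆PSI limit of 0.05 and the adjusted p alone, each with 1 event, the NQO1 pair of exons 4 and 5. Over all genes 62 events were called, but 2 with an unmoderated dispersion, 3 with limma on the logit, 1354 with a likelihood ratio test on pooled counts, 106 at a ∆PSI limit of 0.05 and 172 at the adjusted p alone. The adjusted p of the NQO1 pair was 2.01e-08 with pooled counts, 0.0275 with all types adjusted together and 0.0443 with a dispersion trend, which was added after seeing the data, beside the values given above. KEAP1 exon 5 (adjusted p = 0.0103) and GCLC exon 7 (0.014) passed with pooled counts only, a test that ignores the spread between libraries. With skipped exon events only, the log2 fold change turned to -0.44 for NFE2L2 and -0.080 for NQO1, and with all events summed to -0.010 for NQO1; the cause was not tested.

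Leaving out each library in turn turned the sign of some values that were not called. ∆PSI ranged from -0.129 to 0.0332 points for TXNRD1 exon 16, from -1.49 to 2.08 for exons 15 and 16, from -0.949 to 0.976 for exons 11 and 12, and from -0.0502 to 3.31 for exon 4 with the longer first exon. It ranged from -0.451 to 0.902 for NQO1 exon 4, from -2.42 to 0.564, -5.88 to 1.01 and -5.50 to 0.996 for the 114, 132 and 109 nt forms of GCLC exon 4, from -9.57 to 3.35 for GCLM exon 2 and from -0.97 to 6.71 for SLC7A11 exon 4. Log2 fold changes over these settings ranged from -0.10 to 0.10 for NFE2L2, -0.029 to 0.040 for TXN, -0.042 to 0.072 for GCLM and -0.64 to 0.10 for SLC7A11. Values that kept their sign but moved by over 1.5 times included 1.28 to 3.41 points for TXNRD1 exon 4 with the shorter first exon, -3.69 to -0.821 for exons 10 and 11, 0.0184 to 0.462 for TXN exon 2, -0.0296 to -0.00631 for TXN exon 3, -1.97 to -0.689 for NQO1 exons 2 and 4, 2.14 to 6.84 for SLC7A11 exon 2, and 0 to 9.78 for SLC7A11 exon 7, which had no difference left. Leaving out 1 library also moved the rows between exons 3 and 6. ∆PSI ran from 0.309 to 0.938 points for KEAP1 exon 5 and from 0.333 to 1.03 for KEAP1 exon 4. It ran from 0.361 to 1.11 points for NQO1 exon 4 and from 0.668 to 1.47 for NQO1 exon 5. Over all alternatives the log2 fold change kept its sign for TXNRD1 (0.03 to 0.17), KEAP1 (-0.22 to -0.05) and GCLC (0.06 to 0.23), none with an adjusted p under 0.05. Without length correction ∆PSI kept its sign but was smaller, for instance 0.653 points for KEAP1 exon 5 and 3.06 points for GCLC exon 7. The NQO1 pair kept its direction (-7.13 to -5.11 points), with adjusted p from 0.00798 to 0.12.

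No paired analysis was possible because the columns carry no replicate numbers: the libraries stand in unnamed lists, and no replicate block was fitted. The planned count-based gene tests with TMM and with size factors were not run, since the values are lists of event reads and no gene counts; a median-of-ratios scaling, added after seeing the data, stood in for them. Depth limits the events with under 50 reads on average, which are the 4 of SLC7A11, the 132 and 109 nt forms of GCLC exon 4 and 2 of NFE2L2.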
